A study of Mus musculus with 6 samples.

Results

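The 9 genes described here encode transcription factors that direct effector and helper T cell programmes: Irf4, Batf, Prdm1, Maf, Gata3, Rora, Bcl6, Pparg and Nfil3. They were taken by symbol, and all 24 probe sets annotated to them alone were kept, out of 45101 probe sets for 18194 genes on the array. Each member had a probe set above the filter on dim genes, which left 13645 genes to be tested. Levels are log2 RMA values, on which a difference of 1 unit stands for a doubling, and a gene is represented by its brightest probe set unless another is named.

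Transcripts were measured in regulatory T cells (Treg cells, CD4 T cells that hold immune responses in check), called nTreg in the titles, sorted by flow cytometry from C57BL/6 mice. The groups were Foxo1KO mice that also expressed Foxo1AAA, a constitutively active form of the forkhead factor Foxo1 (Foxo1KO/Foxo1AAA, 1 array), Foxo1KO mice (2 arrays), Foxo1AAA mice that kept their own Foxo1 (1 array) and WT mice (2 arrays). The ages of the mice, the driver of the deletion, the site of the transgene and any pooling of animals are not used here, since no label names them. No label says whether the replicates were separate mice. The 2 arrays of a group differed in Y-linked genes (given below), so they did not hold the same RNA, and p-values cover the spread between these arrays only. The single-array groups have no replicate check of their own.

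Treg cells that meet antigen in tissues switch on factors first known from other lymphocyte lineages. Irf4 binds DNA together with heterodimers of Batf and a Jun protein, and this complex is needed for effector Treg cells. Prdm1, which encodes Blimp-1, acts downstream of Irf4 in effector T cells and represses genes of the naive state. Gata3 is the master factor of Th2 cells, Maf drives Il4 and Il10, Rora acts in Th17 cells and type 2 innate lymphoid cells, and Bcl6 specifies follicular helper cells and opposes Prdm1. Pparg is a lipid-sensing nuclear receptor known for its role in Treg cells of visceral fat, and Nfil3 is a bZIP repressor that regulates helper cytokines and circadian genes. Foxo1 keeps naive T cells quiescent and leaves the nucleus when Akt phosphorylates it.

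The promoters are shown for the member that changed most in the knockout, for a member whose promoter held the short forkhead core, and for the member that fell with the smallest adjusted p. The sequences are from RefSeq (GRCm38.p6), run 5′ to 3′ over the 250 bases before an annotated start of transcription, and carry in capitals each match to GTAAACA (a forkhead motif bound by Foxo factors), to its core AAACA, and to TGANTCA (an AP-1 motif of the kind that Batf and Jun bind). Both strands were searched. The starts shown for Prdm1 and Rora lie inside the annotated span of their gene, downstream of its outermost start.
Prdm1 (chr10:44458749-44458998, minus strand): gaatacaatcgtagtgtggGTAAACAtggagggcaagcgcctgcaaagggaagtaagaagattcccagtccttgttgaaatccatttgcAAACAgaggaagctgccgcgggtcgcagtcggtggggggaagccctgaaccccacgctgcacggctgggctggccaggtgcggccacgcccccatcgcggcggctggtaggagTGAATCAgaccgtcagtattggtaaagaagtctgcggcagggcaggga
Rora (chr9:68653536-68653785, plus strand): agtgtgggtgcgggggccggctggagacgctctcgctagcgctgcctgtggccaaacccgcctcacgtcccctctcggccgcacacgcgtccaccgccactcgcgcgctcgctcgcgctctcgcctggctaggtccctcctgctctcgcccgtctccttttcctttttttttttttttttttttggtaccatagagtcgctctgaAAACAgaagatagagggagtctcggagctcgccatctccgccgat
Irf4 (chr13:30748983-30749232, plus strand): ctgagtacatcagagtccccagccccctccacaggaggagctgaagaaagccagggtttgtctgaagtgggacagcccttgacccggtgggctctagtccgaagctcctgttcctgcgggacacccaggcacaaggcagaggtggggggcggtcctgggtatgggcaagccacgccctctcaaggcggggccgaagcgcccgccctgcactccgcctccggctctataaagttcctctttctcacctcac
Positions count the first base of a match from the start, with negative values before it. The Prdm1 window held the forkhead motif at -231, with a core match inside it, another core match at -161 and the AP-1 motif at -48. It was the only 1 of 11 member windows, from the 8 members in the table, to hold the forkhead motif or the AP-1 motif. The Rora window held 1 core match at -45, and the Irf4 window held none of the 3 motifs. The core was found in 3 of the 11 member windows, those of Prdm1 and Rora and 1 of Pparg. Maf had no promoter entry. Of all 32851 promoter windows of that length, 3.17% held GTAAACA, 46.4% held AAACA and 6.75% held TGANTCA. A match is a description of these letters and was not tested as a binding site.

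Several properties of the arrays bear on all comparisons. The target gene Foxo1 read 9.66 in Foxo1KO/Foxo1AAA, 10.87 and 10.65 in Foxo1KO, 10.71 in Foxo1AAA and 11.03 and 11.35 in WT, and the deleted part was not given, so this does not show how complete the deletion was. The Treg and T cell markers Il2ra, Ctla4, Ikzf2, Tnfrsf18, Cd4, Cd3e and Cd3g were well above background on every array, whereas the probe set of Foxp3 read 5.10 to 5.58 and lay below the filter. The Foxo1KO/Foxo1AAA and Foxo1AAA arrays had wider distributions of values, with interquartile ranges of 3.58 and 3.57 against 3.18 to 3.36 on the other arrays. They also differed in sex markers: the Y-linked gene Eif2s3y read 10.56 and 10.59 on them and Xist 6.27 and 6.04. Replicate 1 of Foxo1KO and of WT had Xist alone (Eif2s3y 4.05 and 3.91), and replicate 2 of each had both Xist and Eif2s3y. Presence of Foxo1AAA, sex makeup and array distribution therefore cannot be told apart where the design confounds them. A term for Y-linked genes was one of the alternatives fitted. It marked 4 arrays alike, those with Foxo1AAA and replicate 2 of Foxo1KO and of WT. Arrays with both Xist and Y-linked genes were thus not separated from arrays with Y-linked genes alone. The term cannot fully adjust for sex makeup.

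Markers of other cells differed between the groups as well. The mean level of 12 myeloid markers was 9.38 in Foxo1KO/Foxo1AAA, 7.71 and 7.27 in Foxo1KO, 9.21 in Foxo1AAA and 7.0 and 7.20 in WT. The macrophage receptor gene Csf1r read 12.38 in Foxo1KO/Foxo1AAA, 9.12 and 8.52 in Foxo1KO, 11.99 in Foxo1AAA and 8.36 and 8.93 in WT, and Adgre1, which encodes the F4/80 antigen, followed the same order of groups. Itgam alone of the 12 stayed below the dimmest tested mean (5.47) on every array. Of 10 tested myeloid markers, 8 were called higher in Foxo1AAA than in WT, 8 in Foxo1KO/Foxo1AAA than in WT, and 3 in Foxo1KO than in WT. In Foxo1KO the largest called rises of this list were those of Lyz1 (1.31) and Lyz2 (0.92). Of 8 tested dendritic cell markers, 7 were called higher and 1 lower in Foxo1AAA than in WT, and 4 higher in Foxo1KO than in WT. The antigen-presentation gene H2-Aa read 12.45 in Foxo1KO/Foxo1AAA, 10.89 and 9.63 in Foxo1KO, 12.28 in Foxo1AAA and 8.40 and 8.90 in WT. Of 8 tested B cell markers, 5 were called higher in Foxo1AAA than in WT. In Foxo1KO against WT, 1 was higher (Cd22, 0.69) and 1 lower (Ighm, -0.67). Of all tested genes, 13.4% were called higher and 14.1% lower in Foxo1AAA than in WT. The shares were 17.0% and 13.7% for Foxo1KO/Foxo1AAA, and 11.2% and 10.7% for Foxo1KO. The plasma cell gene Jchain read 10.40 in Foxo1KO/Foxo1AAA, 9.24 and 8.18 in Foxo1KO, 10.72 in Foxo1AAA and 5.35 and 5.62 in WT, whereas Sdc1, the syndecan that marks plasma cells, was lowest on the arrays with Foxo1AAA. The mean of the 8 Treg and T cell markers, dim Foxp3 among them, stayed between 11.02 and 11.17 on all 6 arrays. Single markers did move. Of the 7 tested, Ctla4 was called higher (0.46) and Cd4 lower (-0.37) in Foxo1KO than in WT. Ikzf2 was called lower in Foxo1KO/Foxo1AAA than in Foxo1KO (-0.34). Several members are also expressed in macrophages, dendritic cells, B cells or plasma cells, and the part of such cells in the differences below was not tested. In sorted bulk samples, more cells of a type and more RNA per cell cannot be told apart.

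**Figure D1:**
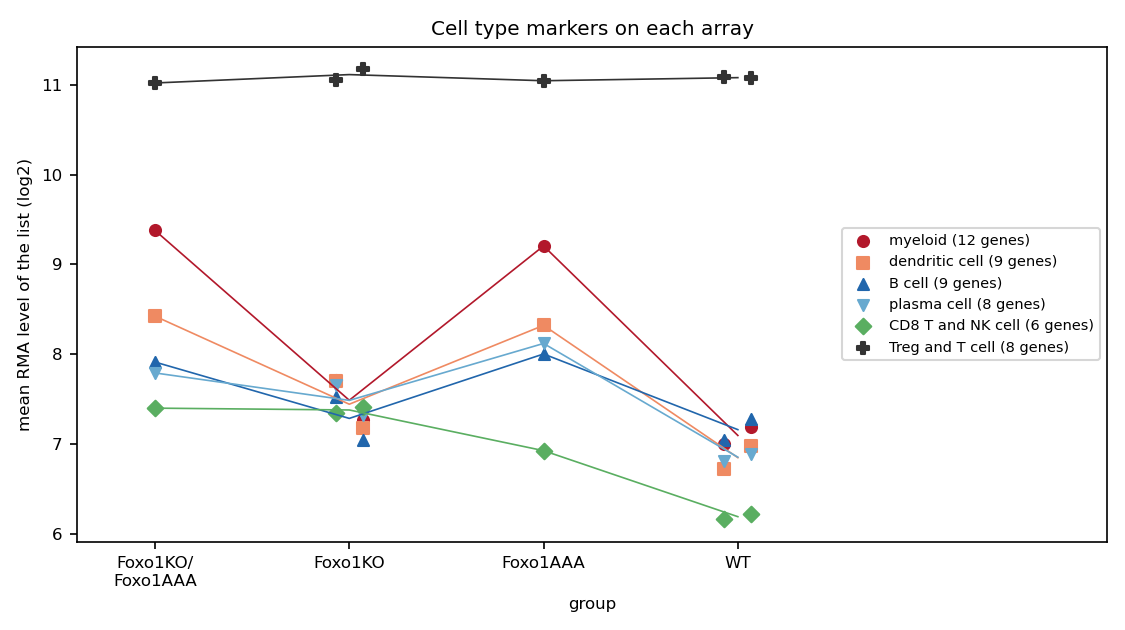
Mean RMA level (log2) of each list of cell type markers, by group, with a point for each array and lines joining group means. The myeloid list stands at 9.38 and 9.21 on the Foxo1KO/Foxo1AAA and Foxo1AAA arrays, above the 7.0 to 7.71 of the Foxo1KO and WT arrays, while the Treg and T cell list stays between 11.02 and 11.17.

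The comparison of Foxo1KO with WT asked which of these factors differ in level between those groups. In Foxo1KO cells 5 of the 9 genes rose (Prdm1, Maf, Nfil3, Rora and Batf) and 2 fell (Irf4 and Pparg), while Gata3 and Bcl6 were not called. Among all 13645 tested genes, 21.8% were called in this comparison, 11.2% higher and 10.7% lower, at an adjusted p under 0.05 from limma with Benjamini-Hochberg adjustment. The median difference of the 9 members was 0.59 and that of all tested genes 0.03. All 7 were called without Foxo1KO replicate 1, and 6 without Foxo1KO replicate 2, where Rora was not (adjusted p = 0.053). The mean of 9 dendritic cell markers was 7.71 and 7.18 on these arrays, against 6.72 and 6.98 in WT, and its part in the calls was not tested. Of the 24 probe sets, 14 were called higher and 2 lower. Of all probe sets, 13.7% were called in either direction when each was tested on its own. Maf gave 5 of the higher calls and Rora 6, which are repeated readings of the same genes.

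**Figure D2:**
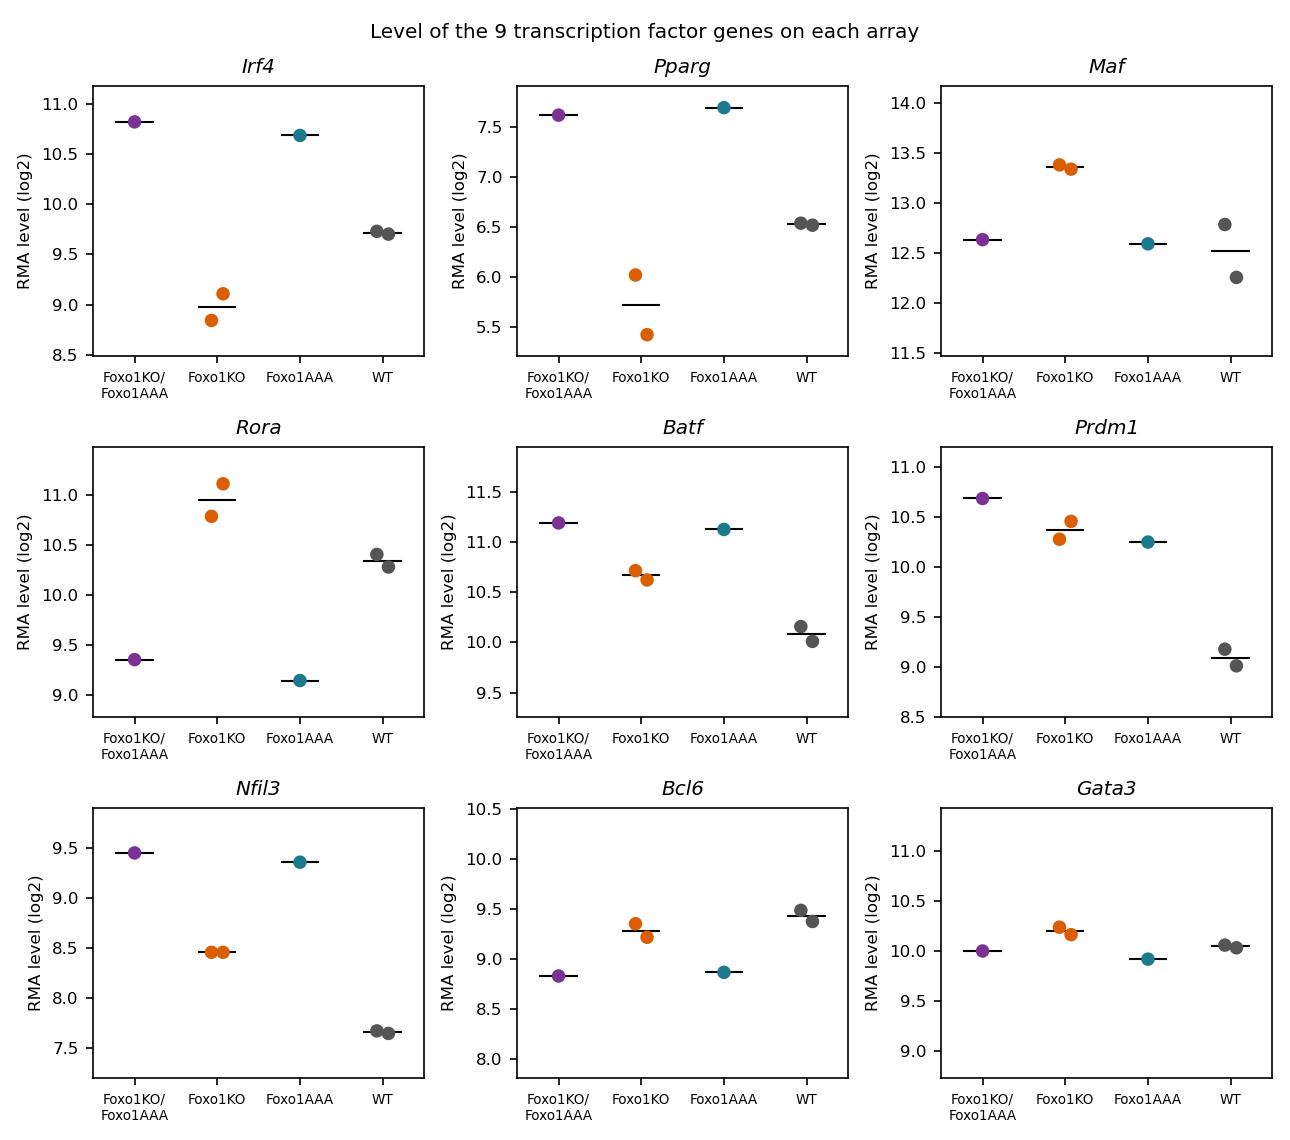
RMA level (log2) of each of the 9 genes on every array, by group, with the group mean as a bar, on panels of equal span. Irf4 and Pparg are lowest and Maf and Rora highest in Foxo1KO, whereas Batf, Prdm1 and Nfil3 are lowest in WT, and the Foxo1KO/Foxo1AAA and Foxo1AAA arrays lie within 0.44 of each other for every gene.

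Irf4, the interferon regulatory factor at the head of the effector programme, moved against the direction of most members in the knockout. It read 10.82 in Foxo1KO/Foxo1AAA, 8.84 and 9.11 in Foxo1KO, 10.69 in Foxo1AAA and 9.73 and 9.70 in WT. Both Foxo1KO arrays lay below all other arrays, and both arrays with Foxo1AAA lay above WT. It fell by 0.74 in Foxo1KO against WT (SE 0.11, adjusted p = 0.0016 from limma), a 1.67-fold lower level. In Foxo1KO/Foxo1AAA it rose 3.61-fold over Foxo1KO (log2 1.85, SE 0.14, adjusted p = 3.2e-05). It was also higher than in WT, by 1.11 in Foxo1KO/Foxo1AAA (SE 0.14, adjusted p = 0.00066) and by 0.97 in Foxo1AAA (SE 0.14, adjusted p = 0.0016). The dimmer second probe set of Irf4 read 6.09 to 6.48 and was not called in any comparison. With Foxo1AAA it went the other way from the brighter one. Its differences from WT were -0.38 in Foxo1AAA (95% interval -0.66 to -0.09) and -0.29 in Foxo1KO/Foxo1AAA (-0.57 to -0.004). Its difference of Foxo1KO/Foxo1AAA from Foxo1KO was -0.04, and that of Foxo1KO from WT was -0.25. With both probe sets averaged, the Foxo1AAA difference was 0.30 and no longer called (adjusted p = 0.084), the Foxo1KO/Foxo1AAA difference from WT was 0.41 and that from Foxo1KO was 0.91.

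Batf, the bZIP partner of Irf4 at composite DNA elements, rose in Foxo1KO against WT, where Irf4 fell. Like the brighter probe set of Irf4, it rose in both groups with Foxo1AAA against WT, and in Foxo1KO/Foxo1AAA against Foxo1KO. Batf read 11.19 in Foxo1KO/Foxo1AAA, 10.72 and 10.62 in Foxo1KO, 11.13 in Foxo1AAA and 10.16 and 10.01 in WT. WT was the lowest group, and its arrays did not overlap with those of any other. The rise over WT was 1.50-fold in Foxo1KO (log2 0.59, SE 0.10, adjusted p = 0.0032), 2.06-fold in Foxo1AAA (log2 1.04, SE 0.12, adjusted p = 0.00068) and 2.16-fold in Foxo1KO/Foxo1AAA (log2 1.11, SE 0.12, adjusted p = 0.00037). Foxo1KO/Foxo1AAA also lay above Foxo1KO, by 0.52 (SE 0.12, adjusted p = 0.010).

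Prdm1, the gene of the terminal differentiation factor Blimp-1, had the largest knockout difference of the 9. It read 10.68 in Foxo1KO/Foxo1AAA, 10.28 and 10.46 in Foxo1KO, 10.25 in Foxo1AAA and 9.18 and 9.01 in WT. Every array of another genotype lay more than 1 unit above both WT arrays. Prdm1 rose 2.41-fold in Foxo1KO (log2 1.27, SE 0.11, adjusted p = 6.5e-05), 2.22-fold in Foxo1AAA (log2 1.15, SE 0.13, adjusted p = 0.00061) and 3.01-fold in Foxo1KO/Foxo1AAA (log2 1.59, SE 0.13, adjusted p = 7.2e-05). Foxo1KO/Foxo1AAA and Foxo1KO differed by 0.32 and this was not called (95% interval 0.02 to 0.62, adjusted p = 0.087). Plasma cells express Prdm1 strongly, and the mean of 8 plasma cell markers was 7.79 in Foxo1KO/Foxo1AAA, 7.66 and 7.32 in Foxo1KO, 8.12 in Foxo1AAA and 6.82 and 6.90 in WT. Of the 6 tested, 3 were called higher in Foxo1KO, where 11.2% of all genes were. Tnfrsf17 and Prg2 were below the dimmest tested mean on every array. The part of plasma cells in the rise of Prdm1 was not tested. The promoter with the forkhead and AP-1 motifs printed above belongs to this gene.

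Nfil3, also called E4bp4, a bZIP repressor that binds the same sites as the PAR bZIP activators Dbp, Tef and Hlf, likewise had its lowest level in WT. It read 9.45 in Foxo1KO/Foxo1AAA, 8.46 on both Foxo1KO arrays, 9.36 in Foxo1AAA and 7.67 and 7.65 in WT. The values on the Foxo1KO arrays were identical, as they were for 80 of 45101 probe sets. Nfil3 rose 1.74-fold in Foxo1KO (log2 0.80, SE 0.09, adjusted p = 0.00033) and 3.24-fold in Foxo1AAA (log2 1.70, SE 0.11, adjusted p = 3.3e-05). It was 3.46-fold above WT in Foxo1KO/Foxo1AAA (log2 1.79, SE 0.11, adjusted p = 1.9e-05), and 0.99 above Foxo1KO (SE 0.11, adjusted p = 0.00034).

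Maf, the bZIP factor that activates Il4, Il21 and Il10 in helper cells, had its highest level in Foxo1KO. On its brightest probe set it read 12.64 in Foxo1KO/Foxo1AAA, 13.38 and 13.34 in Foxo1KO, 12.60 in Foxo1AAA and 12.79 and 12.26 in WT. The WT arrays differed by 0.53, more than for any other member, and both Foxo1KO arrays lay above all others. Maf rose 1.79-fold in Foxo1KO against WT (log2 0.84, SE 0.16, adjusted p = 0.0052). It was lower in Foxo1KO/Foxo1AAA than in Foxo1KO by log2 -0.73 (SE 0.19, adjusted p = 0.017). With either Foxo1KO replicate left out, this difference was no longer called (adjusted p = 0.070 without replicate 1 and 0.053 without replicate 2). Against WT it differed by 0.11 in Foxo1KO/Foxo1AAA (95% interval -0.32 to 0.55) and by 0.07 in Foxo1AAA (95% interval -0.37 to 0.51), and neither was called.

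The other probe sets of Maf gave larger knockout differences. The representing probe set was brighter by mean than 98.5% of tested genes. The 4 next brightest gave 1.15 to 1.32 in Foxo1KO against WT, and each was called higher when all probe sets were tested. In Foxo1KO/Foxo1AAA they were lower than in Foxo1KO by log2 -0.89 to -1.63, again each called. The dimmest of the 6 read 6.18 to 6.35 on all arrays and differed by 0.02 in the knockout.

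Rora, a nuclear receptor of the retinoic acid receptor-related orphan group, had the highest level in Foxo1KO and the lowest on the arrays with Foxo1AAA. It read 9.35 in Foxo1KO/Foxo1AAA, 10.78 and 11.11 in Foxo1KO, 9.14 in Foxo1AAA and 10.40 and 10.28 in WT. The groups did not overlap. Rora rose 1.52-fold in Foxo1KO (log2 0.61, SE 0.12, adjusted p = 0.0081). Without Foxo1KO replicate 2 the rise was 0.44 and was not called. It fell 2.29-fold in Foxo1AAA against WT (log2 -1.20, SE 0.15, adjusted p = 0.0010) and 1.98-fold in Foxo1KO/Foxo1AAA against WT (log2 -0.99, SE 0.15, adjusted p = 0.0021). From Foxo1KO, Foxo1KO/Foxo1AAA was 3.02-fold lower (log2 -1.59, SE 0.15, adjusted p = 0.00013).

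Rora had 9 probe sets. The 6 brightest each rose in Foxo1KO, by 0.49 to 0.82, and each fell in Foxo1KO/Foxo1AAA against Foxo1KO, by log2 -1.02 to -1.59, and in Foxo1AAA against WT, by log2 -0.70 to -1.21, when every probe set was tested. A further probe set, which read 5.21 to 6.21, was not called in the knockout (0.32) but was lower in Foxo1AAA than in WT (log2 -0.60, adjusted p = 0.015). The 2 dimmest were not called in these comparisons. With all 9 averaged the differences shrank to log2 -0.98 for Foxo1KO/Foxo1AAA against Foxo1KO, -0.72 for Foxo1AAA against WT and -0.54 for Foxo1KO/Foxo1AAA against WT, and all stayed called.

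**Figure D3:**
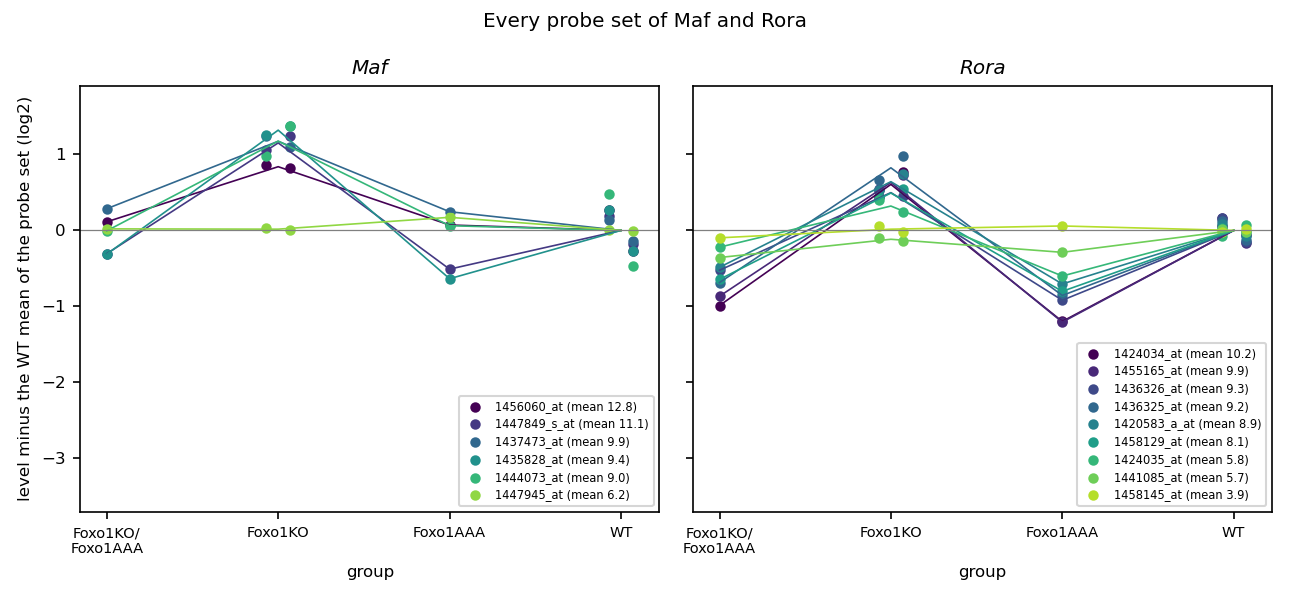
Level of every probe set of Maf (6) and Rora (9) minus that probe set's WT mean (log2), by group, with a point per array and lines through group means. The 5 brightest Maf probe sets rise by 0.84 to 1.32 in Foxo1KO and lie nearer to WT with Foxo1AAA, while the 6 brightest Rora probe sets rise by 0.49 to 0.82 in Foxo1KO and lie below WT with Foxo1AAA.

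Pparg, the other nuclear receptor among the members, had its lowest level in Foxo1KO, where Rora had its highest. It read 7.62 in Foxo1KO/Foxo1AAA, 6.02 and 5.43 in Foxo1KO, 7.70 in Foxo1AAA and 6.54 and 6.52 in WT. The Foxo1KO arrays were lowest and lay close to the dimmest tested mean, and they differed from each other by 0.60. Pparg fell 1.75-fold in Foxo1KO (log2 -0.81, SE 0.17, adjusted p = 0.0095), or by log2 -0.51 without Foxo1KO replicate 2 (adjusted p = 0.027). It rose 3.72-fold in Foxo1KO/Foxo1AAA over Foxo1KO (log2 1.89, SE 0.21, adjusted p = 0.000305). Over WT it rose 2.24-fold in Foxo1AAA (log2 1.16, SE 0.21, adjusted p = 0.0052) and 2.13-fold in Foxo1KO/Foxo1AAA (log2 1.09, SE 0.21, adjusted p = 0.0059). Pparg is a macrophage gene too, and the myeloid list was higher by a median of 3.06 in Foxo1AAA and 3.15 in Foxo1KO/Foxo1AAA against WT, over 10 tested genes. Its part in the rise of Pparg was not tested. In Foxo1KO against WT the myeloid list had a median difference of 0.23, and its part in the fall of Pparg was not tested either.

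Bcl6, the zinc finger repressor of follicular helper cells, was not called in the knockout. It read 8.83 in Foxo1KO/Foxo1AAA, 9.35 and 9.22 in Foxo1KO, 8.87 in Foxo1AAA and 9.49 and 9.38 in WT. Both Foxo1KO arrays lay below both WT arrays by a gap smaller than that between replicates, and the difference was -0.15 (95% interval -0.37 to 0.08, adjusted p = 0.36). With Foxo1AAA it fell against WT, by log2 -0.56 in Foxo1AAA (SE 0.12, adjusted p = 0.011) and -0.60 in Foxo1KO/Foxo1AAA (SE 0.12, adjusted p = 0.0078). Foxo1KO/Foxo1AAA also lay below Foxo1KO by log2 -0.45 (SE 0.12, adjusted p = 0.019). With the dimmer second probe set averaged in, none of these falls was called (adjusted p = 0.081, 0.090 and 0.35), the last with a difference of -0.14. The difference from Foxo1KO was -0.39 both without Foxo1KO replicate 1 and with the term for Y-linked genes, and it was not called there (adjusted p = 0.077 and 0.083).

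Gata3, the zinc finger factor of Th2 cells and of T cell development, varied least. It read 9.996 in Foxo1KO/Foxo1AAA, 10.23 and 10.16 in Foxo1KO, 9.92 in Foxo1AAA and 10.06 and 10.03 in WT. The difference of Foxo1KO from WT was 0.16 (95% interval -0.06 to 0.37, adjusted p = 0.29), and those of Foxo1AAA and Foxo1KO/Foxo1AAA from WT were -0.13 (-0.38 to 0.13) and -0.05 (-0.30 to 0.21). No comparison was called for Gata3 by limma on the deposited values. Foxo1KO/Foxo1AAA against Foxo1KO differed by -0.20 (adjusted p = 0.19), and this was called lower when each array was centred on its median (-0.37, adjusted p = 0.028) and after repeated quantile normalization (-0.36, adjusted p = 0.044).

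**Figure D4:**
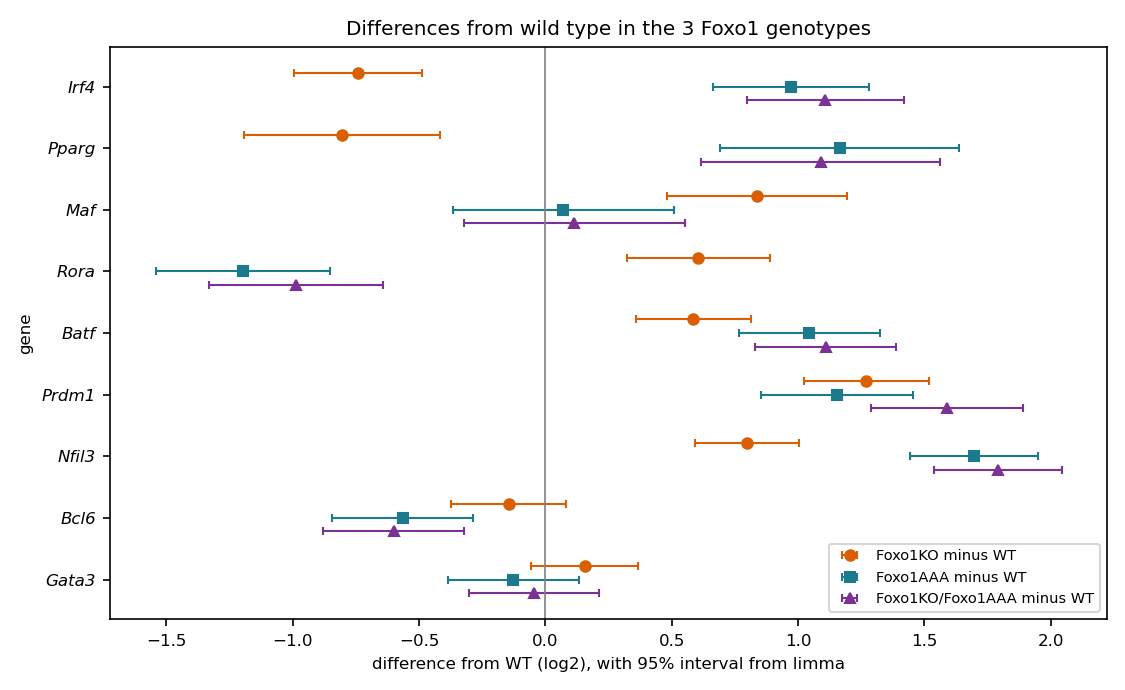
Difference from WT (log2) of each gene in Foxo1KO, Foxo1AAA and Foxo1KO/Foxo1AAA, with 95% intervals from the limma fit; the 3 differences share the WT arrays. For Irf4, Pparg and Rora the intervals of Foxo1KO lie on the opposite side of 0 from those of both groups with Foxo1AAA, and for Batf, Prdm1 and Nfil3 all 3 lie above 0.

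Counted over the members, Foxo1KO/Foxo1AAA against Foxo1KO gave 4 rises (Irf4, Pparg, Nfil3 and Batf) and 3 falls (Rora, Maf and Bcl6), where 39.8% of all tested genes were called (19.6% higher and 20.2% lower). Foxo1AAA against WT gave 5 rises (Nfil3, Pparg, Prdm1, Batf and Irf4) and 2 falls (Rora and Bcl6), where 27.5% of all genes were called (13.4% higher and 14.1% lower). Foxo1KO/Foxo1AAA against WT gave the same counts, 5 and 2, where 30.7% of all genes were called (17.0% higher and 13.7% lower). Over the 24 probe sets the calls were 4 higher and 13 lower for Foxo1KO/Foxo1AAA against Foxo1KO, 5 and 8 for Foxo1AAA against WT, and 5 and 7 for Foxo1KO/Foxo1AAA against WT, 9 probe sets being those of Rora. Of all probe sets 30.7%, 23.6% and 24.3% were called in these comparisons. These comparisons share arrays with each other and with that of Foxo1KO and WT, so they are given side by side and not as repeats. Of the 7 genes called in the knockout, Maf was the one not called between Foxo1KO/Foxo1AAA and WT, and its interaction, described next, was not called either (-0.80, adjusted p = 0.14).

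The comparison of Foxo1KO/Foxo1AAA with Foxo1AAA set the knockout against its control when both carried the active form. None of the 9 was called by limma (1 at an unadjusted p under 0.05), and of all genes 0.0733% were (0.0660% higher and 0.00733% lower). None of the 24 probe sets was called, beside 0.0554% of all probe sets. Each group was a single array, so this rests on the spread of the other groups. The differences ran from -0.08 for Pparg (95% interval -0.62 to 0.47) to 0.44 for Prdm1 (0.09 to 0.78). For Irf4 the difference was 0.14 (-0.22 to 0.49) and for Nfil3 0.09 (-0.20 to 0.38).

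Whether the knockout difference itself changed when Foxo1AAA was present was tested as an interaction, and 3 members were called where 5.94% of all genes were (2.81% higher and 3.14% lower). The knockout difference of Irf4 was 0.14 with Foxo1AAA and -0.74 without it, so the interaction was 0.88 (SE 0.19, adjusted p = 0.034). For Prdm1 the knockout differences were 0.44 with and 1.27 without Foxo1AAA (interaction -0.84, SE 0.19, adjusted p = 0.036). For Nfil3 they were 0.09 with and 0.80 without it (interaction -0.70, SE 0.16, adjusted p = 0.036). Without Foxo1KO replicate 1 none of these 3 was called by limma (adjusted p = 0.070, 0.052 and 0.081), with interactions of 0.74, -0.92 and -0.70. When every probe set was tested, none of the 3 was called either (adjusted p = 0.059, 0.063 and 0.066). In that fit 1 of the 24 probe sets, of Maf, was called, beside 2.98% of all probe sets.

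Genes that act with or downstream of the members were counted from lists chosen by the role of each factor. Earlier results of these data were known when the lists were chosen, so their counts are descriptions and not independent evidence. Of 14 tested effector Treg genes linked to Irf4, Batf and Blimp-1, 11 rose in Foxo1KO, with a median of 0.94 beside 0.03 for all genes. In that comparison 11.2% of all genes were called higher and 10.7% lower. The cytotoxic protease gene Gzmb rose by 4.41 (adjusted p = 1.1e-07) and Havcr2, which encodes the inhibitory receptor Tim-3, by 3.44 (adjusted p = 9.2e-06). The mean of 6 markers of CD8 T cells and NK cells was 7.40 in Foxo1KO/Foxo1AAA, 7.34 and 7.42 in Foxo1KO, 6.93 in Foxo1AAA and 6.17 and 6.22 in WT. In Foxo1KO 3 of these 6 were called higher and 0 lower, led by Klrc1 at 4.04 and Xcl1 at 1.27. The part of such cells in the effector list was not tested. In Foxo1KO/Foxo1AAA against Foxo1KO, 6 of the 14 fell and 2 rose, where 20.2% of all genes were called lower and 19.6% higher. Of 9 tested naive-state genes listed as repressed by Blimp-1 in T cells, 8 fell in the knockout, with a median of -0.74. Id3, an inhibitor of E proteins, fell by 2.35 (adjusted p = 1.4e-05), and Ccr7, the lymph node homing receptor, fell by 1.66 (adjusted p = 1.3e-05). In Foxo1KO/Foxo1AAA, 7 of these 9 lay above Foxo1KO and 1 below. Against WT, 2 of the 9 were called higher and 0 lower in Foxo1AAA, and likewise in Foxo1KO/Foxo1AAA. Of all genes, 13.4% were called higher and 14.1% lower in Foxo1AAA, and 17.0% and 13.7% in Foxo1KO/Foxo1AAA. Prdm1 was higher than in WT in both of these groups. The parts of Prdm1 and of Foxo1 itself in the differences of this list were not tested and cannot be told apart here.

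The lists of helper lineages follow, where 11.2% of all genes were called higher and 10.7% lower in Foxo1KO. Of 10 tested Th2 genes linked to Gata3 and Maf, 3 rose and 1 fell in Foxo1KO (median 0.09). Il17rb, a receptor chain for IL-25, rose by 1.47 and Il4 by 1.44 (adjusted p = 9.0e-05 and 0.00016). Of 8 Th17 genes linked to Rora, Batf and Irf4, 2 rose and 1 fell (median 0.23), among them the chemokine receptors Cxcr6 at 1.19 and Ccr6 at -1.37 (adjusted p = 0.00055 and 5.0e-05). Of 13 follicular helper genes linked to Bcl6 and Maf, 5 fell and 1 rose (median -0.26). The largest falls were those of Il6ra, the IL-6 receptor (log2 -1.74, adjusted p = 1.1e-05), and Slamf6 (log2 -1.51, adjusted p = 1.2e-05). In Foxo1KO/Foxo1AAA against Foxo1KO, 7 of the 13 rose and 1 fell, with a median of 0.76 beside -0.02 for all genes. Of all genes, 19.6% were called higher and 20.2% lower there. The 8 tested B cell markers had a median difference of 0.53 in the same comparison, and the part of other cells in the follicular helper list was not tested.

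Of 13 tested lipid genes linked to Pparg, 7 rose and 2 fell in Foxo1KO (median 0.48), while Pparg fell. The fatty acid carrier gene Fabp5 rose by 1.42 (adjusted p = 2.8e-05), and Abca1, a cholesterol exporter, fell by 1.23 (adjusted p = 0.00016). Abca1 read 10.45 in Foxo1KO/Foxo1AAA, 8.22 and 8.15 in Foxo1KO, 10.29 in Foxo1AAA and 9.59 and 9.25 in WT, the same order of groups as Irf4. Of 15 circadian genes linked to Nfil3 and Rora, 2 rose and 2 fell in Foxo1KO (median -0.03), close to the shares of 11.2% and 10.7% over all genes. Dbp, the PAR bZIP activator, fell by 1.26 (adjusted p = 0.00031), and the repressor Bhlhe40 rose by 0.94 (adjusted p = 0.0035).

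Of 26 tested relatives of the members in the same families, 5 rose and 3 fell in Foxo1KO (median 0.06), where 11.2% of all genes were called higher and 10.7% lower. Irf8, the closest relative of Irf4, rose by 1.53 (adjusted p = 3.2e-05) while Irf4 fell. It read 9.18 in Foxo1KO/Foxo1AAA, 9.85 and 10.13 in Foxo1KO, 9.04 in Foxo1AAA and 8.42 and 8.48 in WT, and Irf8 is also a gene of myeloid, dendritic and B cells. Bach2, a bZIP repressor of effector differentiation that competes with AP-1 factors, fell by 1.42 (adjusted p = 2.2e-05). It read 10.93 in Foxo1KO/Foxo1AAA, 9.90 and 9.79 in Foxo1KO, 11.07 in Foxo1AAA and 11.24 and 11.30 in WT. Of 9 tested Jun partners of Batf and Irf4 and their companions, 3 rose (median 0.32), led by Fosl2 at 0.49 and Nfatc2 at 0.41 (adjusted p = 0.0058 and 0.017). Of 18 other lineage factors, 5 rose and 4 fell (median 0.09), with Eomes, the T-box factor of cytotoxic cells, at 2.25 (adjusted p = 2.3e-06).

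The genes whose levels ran most like each member over the 6 arrays were sought among 1782 tested genes that varied by at least 1 log2 unit. These correlations are descriptions over 6 arrays in 4 groups, which share the differences in sex markers, other cells and distribution given above. Taking the highest of many r values over 6 arrays favours high values, so their size is not evidence of a link. Prdm1 ran most like Ccna2, the S-phase cyclin (Pearson r = 0.998), and Prdx4 (0.997). Ccna2 read 11.24 in Foxo1KO/Foxo1AAA, 10.79 and 10.86 in Foxo1KO, 10.68 in Foxo1AAA and 9.18 and 8.94 in WT. Irf4 ran most like Ccs, the copper chaperone for superoxide dismutase (r = 0.998), and Pgpep1l (0.997). Batf ran most like the helicase gene Brip1 (0.998) and Plek (0.997). Rora ran most like the death ligand gene Tnfsf10 (0.996) and AU016916 (0.995), and Pparg like Zfp800 (0.999) and Pcyox1 (0.995). Nfil3 ran most like Lsm2 (0.996) and Tubb4b (0.995), and Maf, with the lowest best value of the 7 genes searched, like 9630013D21Rik (0.992) and Scpep1 (0.983).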

How the data were processed

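The authors deposited log2 values from RMA, which corrects background, quantile-normalizes arrays and summarizes probes into probe sets; RMA, R 2.15 and limma 3.12.1 are named per the submitters' processing notes. RNA extraction used the miRNeasy kit, per the labels' protocols. Of 45101 probe sets, 34958 were listed with 1 gene, 932 with several and 9211 with none; only those of 1 gene were used in the gene analysis. A gene was represented by its brightest probe set by mean level, and the lowest 25% of genes by mean were left out, leaving a dimmest tested mean of 5.47. Group means were estimated by limma 3.58.1 (R 4.3.3), 1 coefficient per group, with an empirical Bayes prior (2 residual and 6.59 prior degrees of freedom). Tests were two-sided, with Benjamini-Hochberg adjustment over all 13645 genes, and 95% intervals came from the same fit. A second fit tested every probe set. The 2 single-array groups were assumed to vary like the WT and Foxo1KO pairs. Quantile normalization hides a shift of most transcripts, and the number of arrays limits the precision. The steps were tested on simulated data. Named list genes, beside all 9 members, were the 2 with the largest called knockout difference in each list, except in the marker lists. There genes such as Csf1r, Adgre1, Itgam and Sdc1 were named outside this rule, and not every gene it gives was named. Likeness was Pearson r. The members, lists and tests were chosen with earlier results of these data known. Alternatives covered the filter, the probe set rule, the variance prior, centring, a term for Y-linked genes, each replicate left out, the replicate number as a block and, added after seeing the arrays' distributions, repeated quantile normalization.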

Additional observations from a re-analysis of the deposited data

Results flagged for a closer look

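The knockout differences of 3 genes were themselves different with and without Foxo1AAA, by the interaction term of the limma fit. For Irf4 the interaction was 0.88 log2 units (adjusted p = 0.034, range over 13 alternatives 0.014 to 0.073). For Prdm1 it was -0.84 (adjusted p = 0.036, range 0.016 to 0.099), and for Nfil3 it was -0.70 (adjusted p = 0.036, range 0.023 to 0.088). Each of the 3 interactions kept its direction under every alternative run, and none of the 3 stayed below the threshold under all of them. The groups with Foxo1AAA were single arrays, so the interaction borrows its spread from the WT and Foxo1KO pairs.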

How the results depend on the processing

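Over 54 differences of the members and 714 values under alternatives, 687 stayed on their side of the threshold, 23 lost a call, 4 gained one and 0 called values changed sign. Differences that were not called and lay near 0 did change sign, as for Maf in Foxo1AAA against WT (0.07, or -0.19 without WT replicate 2). The number of members called stayed within 1.5 times its value in the 5 comparisons of groups. For the interaction it was 3, and it was 0 with every probe set as its own feature, 1 with a term for Y-linked genes and 1 to 3 with a replicate left out. Maf gained an interaction call without WT replicate 1 (-1.06, adjusted p = 0.0056) and Pparg without Foxo1KO replicate 1 (1.03, adjusted p = 0.028). With the replicate block, fitted on WT and Foxo1KO arrays alone, 7 members were called as before and no call changed (2458 genes in all, against 2980). The numbers were not shown to pair the samples: the replicate gaps of Foxo1KO and WT correlated at -0.096 over tested genes. Counts over all genes moved with the number of features: 6187 for Foxo1KO against WT and 1345 for the interaction (811 otherwise) with every probe set, and 3423 (5430 otherwise) for Foxo1KO/Foxo1AAA against Foxo1KO and 2236 (3758 otherwise) for Foxo1AAA against WT with the lowest 50% left out. With the term for Y-linked genes they were 2392 for Foxo1AAA and 2689 (4193 otherwise) for Foxo1KO/Foxo1AAA against WT, and without Foxo1KO replicate 2 the interaction count was 443; the cause was not tested. For Foxo1KO/Foxo1AAA against Foxo1AAA the count of 10 ranged from 3 to 91. Centring moved array medians by -0.09 to 0.13. The filter at 50% removed Pparg, the dimmest member.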
